A study of Equus caballus with 2 samples.

Results

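The enzymes and chaperones that act on collagen chains in the endoplasmic reticulum were examined in cultured endometrial fibroblasts of the horse with and without TGF-β1. The set was chosen by name and holds 10 of the 21426 genes listed in the deposited matrices. It comprises the alpha subunits of collagen prolyl 4-hydroxylase (P4HA1, P4HA2 and P4HA3), its beta subunit (P4HB), the prolyl 3-hydroxylase family (P3H1, P3H2, P3H3 and P3H4), the cartilage-associated protein CRTAP and the collagen-specific chaperone SERPINH1, also known as HSP47. All 10 genes were listed under their own symbol and had transcripts in both libraries.

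Collagen prolyl 4-hydroxylase adds a hydroxyl group to proline residues of the newly made collagen chain, which the triple helix needs in order to be stable at body temperature. The enzyme is built from alpha subunits, which carry the catalytic site, and from P4HB, which is protein disulfide isomerase, and it uses molecular oxygen, 2-oxoglutarate, iron and ascorbate. P3H1 forms a complex with CRTAP and the prolyl isomerase PPIB that modifies a specific proline of fibrillar collagen and helps the chain to fold, while SERPINH1 binds the folded triple helix on its way to the Golgi apparatus. Fibroblasts are the main producers of fibrillar collagen, and its deposition around the uterine glands is the hallmark of endometrial fibrosis in the mare.

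Single cell RNA sequencing was available here for the control and the TGF-β1 group, with 1 droplet library each, and each library pooled passage 3 fibroblasts of 4 mares. The mares came from an abattoir and had healthy or mildly fibrotic endometria. Both groups grew on hydrogels coated with rat tail collagen type I and received medium with 0.1% BSA in place of serum for the last 24 h, without further addition in the control and with recombinant human TGF-β1 at 10 ng/ml in the treated group. The cells treated with MFGE8 were not analysed here. With 1 library per group, a difference between the libraries has no replicate check, and treatment and library cannot be told apart. Each ratio is therefore given with an exact binomial 95% interval that covers counting error only, and no test was made.

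After removal of barcodes with under 20000 unique molecular identifiers (UMIs, each standing for 1 captured transcript), under 3500 genes or 4% or more mitochondrial UMIs, 3865 of 4384 control barcodes and 4513 of 5124 TGF-β1 barcodes were kept. The median depth was 50313 UMIs per cell in the control and 43142 in the TGF-β1 library. The libraries shared 6 barcodes, of which 2 were kept in both. VIM, COL1A1 and COL1A2 had a UMI in 100% of the kept cells of either library after every cell was thinned to 20000 UMIs. THY1 did so in 93.3% of control and 72.4% of treated cells, PDGFRB in 75.4% and 58.7% and PDGFRA in 53.4% and 25.1%. Of 9 fibroblast markers 4 were more than 1.5-fold lower after TGF-β1, among them VIM with 4399 and 2240 CPM (UMIs per 1000000 UMIs), although VIM was present in every cell. The part of this difference in the results was not tested. EPCAM had a UMI in 0 and 1 cell, CDH1 in 1 and 2 cells, and PTPRC, the common leukocyte antigen, in 0 and 0 cells. Of the other 4 immune markers, CD3E and MS4A1 were found in 3 cells or fewer of either library, but CD68 in 57.6% and 56.2% and CD14 in 24.5% and 18.5% of the cells. The part of the cells with CD68 or CD14 in the results was not tested. KRT8, a keratin of simple epithelia, had a UMI in 25.4% of the control cells and in 3.37% of those given TGF-β1, and its part in the results was not tested beyond the split given further on.

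All 10 genes were higher in the TGF-β1 library than in the control, and all 10 counting intervals lay above 0. The share of all genes with such an interval was not counted, so the number of intervals is no result about the members. Levels are given as CPM of the summed kept cells, and since the 3′ assay takes 1 tag per transcript they were not divided by gene length. Expressed as log2 ratios of the treated to the control library, their median was 0.38. The 7658 genes that averaged 10 CPM or more had a median of 0.01, with 51.4% of them higher and 48.6% lower. 3 of the 10 genes were more than 1.5-fold higher, namely P3H2, P4HA3 and P3H1, and none was more than 1.5-fold lower. The same limit was passed upward by 6.19% and downward by 6.48% of those 7658 genes. A 2-fold limit was passed by P3H2 alone among the members, beside 2.3% of the 7658 genes upward and 2.13% downward. P3H2 lay below the minimum of 10 CPM, so that 2 of 9 members compare directly with this background.

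**Figure D1:**
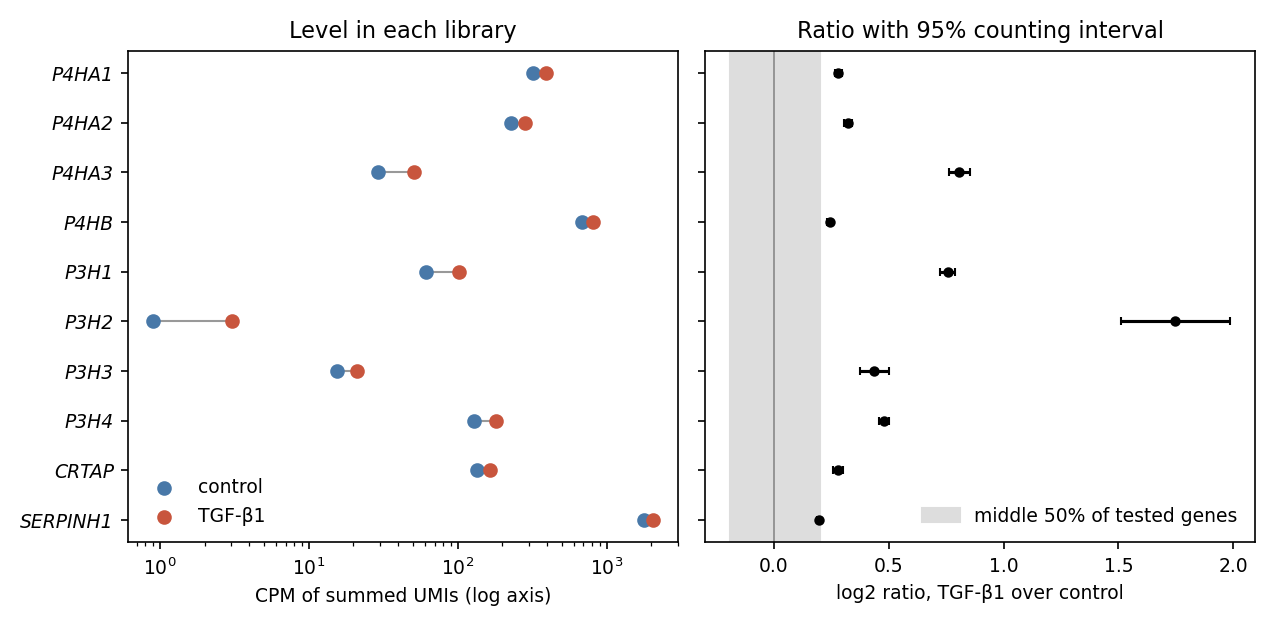
Left, the level of each gene in the control (blue) and TGF-β1 (red) library in CPM on a log axis; right, the ratio of both levels on the log2 scale with its 95% counting interval, and in grey the middle 50% of the 7658 tested genes. The red point lies to the right of the blue point for all 10 genes, and P4HA3, P3H1 and P3H2 stand farthest to the right in the ratio.

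The most abundant alpha subunit was P4HA1, the widely expressed form, with 322 CPM in the control (67783 UMIs) and 391 CPM after TGF-β1 (85968 UMIs), which gave a log2 ratio of 0.28 (0.27 to 0.30). NUDT13, the gene that overlaps P4HA1 in the RefSeq assembly TB-T2T, was much lower, at 2.25 and 1.48 CPM. P4HA2, the form known from cartilage and other connective tissue, had 227 and 285 CPM, and its log2 ratio was 0.33 (0.31 to 0.34). P4HA3, the least studied form, was present at 29.2 CPM in the control (6145 UMIs) and 51.1 CPM after TGF-β1 (11226 UMIs), with a log2 ratio of 0.81 (0.76 to 0.85). Thus P4HA3 was the rarest alpha subunit in both libraries and had the largest ratio of the alpha subunits.

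Within the summed UMIs of the alpha subunits, P4HA1 accounted for 55.7% in the control (55.4 to 55.9%) and 53.8% in the TGF-β1 library (53.6 to 54.1%). The share of P4HA2 was 39.3% and 39.2%, with intervals that overlapped. P4HA3 made up 5.05% (4.92 to 5.17%) and 7.03% (6.90 to 7.15%). The mix of alpha subunits was therefore nearly alike in both libraries, with the difference lying between P4HA1 and P4HA3.

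P4HB, which also serves as a general disulfide isomerase outside this enzyme, had 683 CPM in the control and 809 CPM after TGF-β1, with a log2 ratio of 0.24 (0.23 to 0.25). Its transcripts outnumbered those of the alpha subunits by 1.18 to 1 in the control and by 1.11 to 1 after TGF-β1. SERPINH1 was the most abundant of the 10 genes, with 1783 CPM (375285 UMIs) and 2044 CPM (449142 UMIs), which placed it 96th among all listed genes by mean level. Its log2 ratio of 0.20 (0.19 to 0.20) was the smallest of the set.

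In the prolyl 3-hydroxylase family the catalytic member P3H1 had 60.9 CPM in the control (12824 UMIs) and 103 CPM after TGF-β1 (22624 UMIs), with a log2 ratio of 0.76 (0.73 to 0.79). CRTAP, its partner without catalytic activity, had 135 and 164 CPM and a log2 ratio of 0.28 (0.26 to 0.30). PPIB, the third component, was far more abundant, at 1657 and 1953 CPM, and its log2 ratio was 0.24 (0.23 to 0.24). P3H1 was thus the scarcest component of the complex by transcript count, with 0.451 UMIs per CRTAP UMI (0.442 to 0.461) in the control and 0.628 (0.617 to 0.638) in the TGF-β1 library. The number of PPIB UMIs per CRTAP UMI was 12.3 and 11.9.

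P3H4, which has no catalytic activity of its own and works with P3H3 and lysyl hydroxylase 1 (PLOD1), had 129 and 180 CPM, with a log2 ratio of 0.48 (0.46 to 0.50). P3H3 had 15.6 and 21.1 CPM, a log2 ratio of 0.44 (0.37 to 0.50). The ratio of P3H3 to P3H4 UMIs was 0.121 in the control and 0.117 in the TGF-β1 library, with overlapping intervals (0.117 to 0.125 and 0.114 to 0.121). PLOD1 had 63.4 and 81.1 CPM and a log2 ratio of 0.35 (0.32 to 0.39). In the same assembly P3H4 lies next to FKBP10, another collagen foldase, whose log2 ratio was 0.29 (0.26 to 0.31). The log2 ratio of P3H4 was above that of PLOD1 and FKBP10, with intervals that did not overlap.

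P3H2, the family member known for acting on basement membrane collagen type IV, was rare, with 0.907 CPM (191 UMIs) in the control and 3.04 CPM (668 UMIs) in the TGF-β1 library. It showed the largest ratio of the set, 3.35-fold (2.85 to 3.96), or 1.74 on the log2 scale. UMIs of P3H2 were found in 111 control cells and 395 TGF-β1 cells before thinning. Cells with 3 or more of these UMIs numbered 16 and 59 and held 39.3% and 38.2% of all P3H2 UMIs, so that in both libraries the transcript sat in a small number of cells.

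The type IV collagen chains were compared between cells with and without a P3H2 UMI. COL4A1 had 422 CPM in 56 positive and 389 CPM in 3809 negative control cells, and 484 CPM in 209 positive and 420 CPM in 4304 negative TGF-β1 cells. The log2 difference was 0.12 (0.04 to 0.19) and 0.20 (0.16 to 0.24), beside medians of 0.06 and 0.04 over all genes. For the partner chain COL4A2 it was 0.10 (-0.01 to 0.20) and 0.21 (0.15 to 0.26). The positive cells had a median depth of 49888 against 50319 UMIs in the control and 46868 against 42955 UMIs after TGF-β1. COL4A1 differed with depth, with 445 against 335 CPM between the deepest and shallowest 25% of the TGF-β1 cells, and the part of depth in the split by P3H2 was not tested. Over the whole libraries COL4A1 had 390 and 424 CPM, a log2 ratio of 0.12 (0.11 to 0.13), and COL4A2 had 223 and 221 CPM (-0.03 to 0.01).

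The level of the modifying enzymes was also set against that of their substrate. The summed UMIs of 43 collagen chain genes gave 17055 CPM in the control and 20961 CPM after TGF-β1, or 0.30 on the log2 scale, beside 3386 and 4051 CPM and a log2 ratio of 0.26 (0.25 to 0.26) for the 10 enzymes and chaperones together. Per 1000 collagen UMIs there were 198.5 UMIs of the 10 genes in the control and 193.3 in the TGF-β1 library. SERPINH1 (1783 and 2044 CPM) and P4HB (683 and 809 CPM) made up most of this sum. The alpha subunits together had a log2 ratio of 0.33 (0.32 to 0.34), and P3H1, P3H2 and P3H3 together 0.72 (0.69 to 0.74). The sum of all 10 genes thus differed about as much as that of the collagen chains.

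The single genes did not all keep this proportion. P4HA1 had 18.9 and 18.7 UMIs per 1000 collagen UMIs, and CRTAP had 7.92 and 7.82, with an interval of the log2 ratio of -0.04 to 0.01. SERPINH1 had 104.5 and 97.5, a log2 ratio of -0.10 (-0.11 to -0.09). Against COL1A1 alone, which had 5608 and 6376 CPM, the number of SERPINH1 UMIs per COL1A1 UMI was 0.318 and 0.321. Relative to collagen, P3H1 had 3.57 and 4.91 and P4HA3 1.71 and 2.44 UMIs, which is 0.46 and 0.51 on the log2 scale, so that both exceeded the collagen sum. P3H2 (1.45), P3H4 (0.18), P3H3 (0.14) and P4HA2 (0.03) exceeded it as well. The log2 ratio per collagen UMI of P4HA1, P4HB and CRTAP lay between -0.05 and -0.02.

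The differences were also visible in the distribution over single cells, after thinning to 20000 UMIs each. For P3H1, 68.5% of control cells (67.0 to 70.0%) and 85.8% of TGF-β1 cells (84.7 to 86.8%) had a UMI, and the median was 1 and 2 UMIs. The share with a P4HA3 UMI was 38.9% (37.4 to 40.5%) and 57.5% (56.0 to 58.9%). Before thinning these shares were 91.8% and 97.1% for P3H1 and 65.7% and 81.0% for P4HA3. No cell type that should lack these genes was present in either library, so the share due to free RNA was not tested.

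P4HA1 was found in 98.4% and 99.6% of the thinned cells, with a median of 6 and 7 UMIs, and its whole distribution lay further to the right in the TGF-β1 library. The median of P4HB was 13 and 16 UMIs, and that of SERPINH1 34 and 40 UMIs. The control median was exceeded by 57.7% of TGF-β1 cells for P4HA1, 66.0% for P4HB, 66.5% for SERPINH1 and 67.2% for P3H4, beside 41.4% to 48.8% of control cells. These genes were thus present in nearly every cell, and the libraries overlapped widely. P3H1, CRTAP and PPIB were found together in 63.4% of control cells (61.8 to 64.9%) and 81.7% of TGF-β1 cells (80.6 to 82.9%). This was close to the product of the 3 single shares, 63.2% and 81.5%. PPIB was found in 99.97% and 100% and CRTAP in 92.3% and 95.1% of the cells. The joint share therefore had little room to depart from the product, and it does not show whether the partners vary together.

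**Figure D2:**
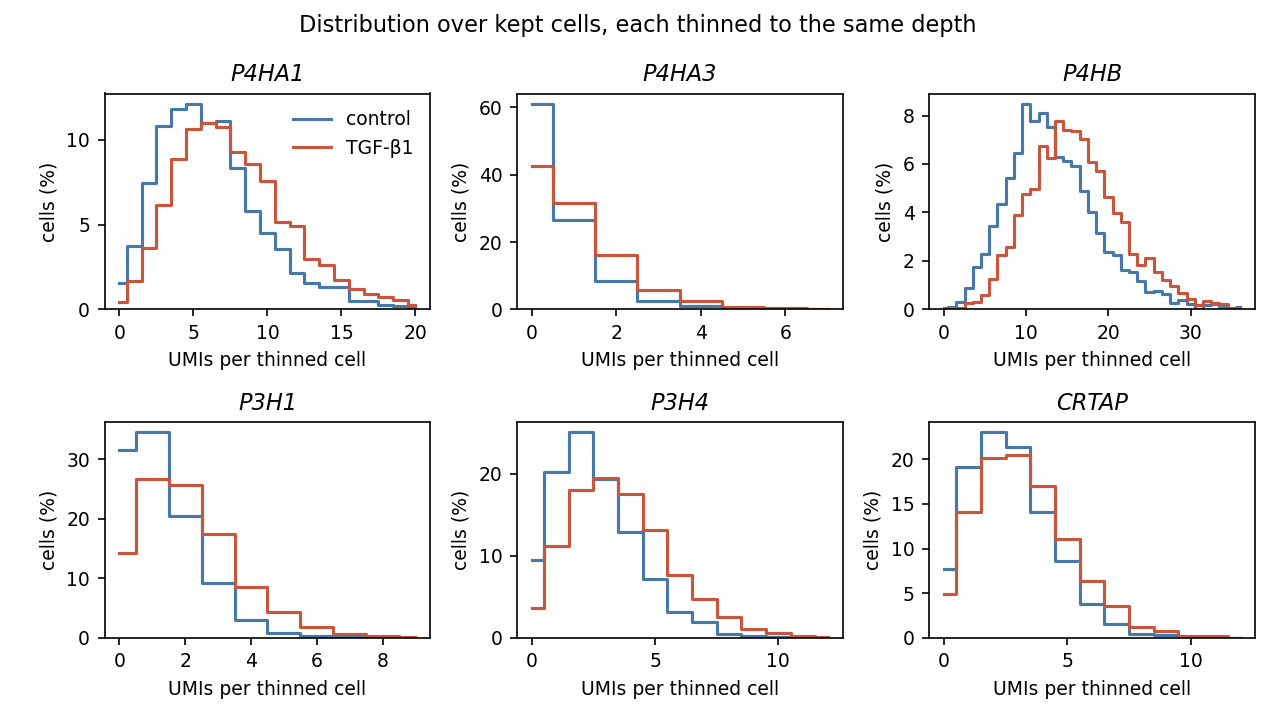
Percentage of kept cells (vertical axis) with a given number of UMIs (horizontal axis) after thinning each cell to 20000 UMIs, for 6 genes in the control (blue, 3865 cells) and TGF-β1 (red, 4513 cells) library. The red curves lie to the right of the blue ones and overlap them widely, and for P3H1 the share of cells without a UMI is much smaller in red.

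The libraries differed in depth, so the ratios were also taken between cells of like depth, in 4 bins with boundaries at 38197, 46557 and 58168 UMIs. All 40 ratios (10 genes in 4 bins) were above 0, with intervals above 0. They are splits of the same libraries and no independent checks, and the share of all genes above 0 within the bins was not counted. Their size differed between bins for some genes. The log2 ratio of P4HA1 was 0.54 (0.50 to 0.59) among the shallowest and 0.16 (0.14 to 0.18) among the deepest cells, and that of P4HB was 0.45 (0.42 to 0.49) and 0.14 (0.13 to 0.16). For SERPINH1 it was 0.42, 0.22, 0.08 and 0.14 from the shallowest to the deepest bin. P4HA3 ranged from 0.69 to 0.87 and P3H1 from 0.67 to 0.98, so that their ratios were above those of P4HA1 and P4HB in each bin.

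For P4HA1 and P4HB the levels differed more between the shallowest and deepest bin in the control than in the TGF-β1 library. In the control, P4HA1 had 246 CPM in the shallowest and 347 CPM in the deepest bin, and P4HB 570 and 728 CPM. In the TGF-β1 library the corresponding levels were 359 and 388 CPM for P4HA1 and 782 and 803 CPM for P4HB. SERPINH1 did not follow them, with 1673 and 1770 CPM in the control and 2232 and 1958 CPM after TGF-β1. Among cells with at least 3 proliferation markers, 90 in the control and 87 in the TGF-β1 library, the log2 ratio of P4HB was 0.02 (-0.03 to 0.08), with an interval that included 0. The median depth of these cells was 73145 and 56555 UMIs, and its part was not tested. For P4HA1 it was 0.23 (0.14 to 0.32) and for P3H1 0.90 (0.69 to 1.10) in these cells.

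P4HA1 is also known as a target gene of the hypoxia-inducible transcription factors. Its level was therefore compared with 15 hypoxia-responsive genes, among them glycolytic enzymes. Spearman correlations were computed over the thinned cells within each library, and they are given as descriptions: the cells of a library share their culture, pool of 4 mares and sequencing run. The 5 genes most alike to P4HA1 among 2796 genes that averaged 50 CPM or more were ENO1, LDHA, BNIP3, PGK1 and PGAM1. ENO1, a glycolytic enzyme, had a coefficient of 0.42 over 3865 control cells and 0.32 over 4513 TGF-β1 cells, and LDHA, lactate dehydrogenase, 0.40 and 0.31. For BNIP3, a mitophagy receptor, the coefficients were 0.37 and 0.29, for PGK1 0.35 and 0.26 and for PGAM1 0.29 and 0.22. The 95th percentile of the coefficients of P4HA1 over all 2796 genes was 0.11 and 0.09.

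For P4HA2 the coefficients with these genes were smaller. The 6 hypoxia-responsive genes with at least 50 CPM had a median coefficient of 0.36 and 0.27 with P4HA1 and of 0.07 and 0.04 with P4HA2. Of these 6 genes, 4 in the control and 5 in the TGF-β1 library lay above the 95th percentile of P4HA1, and 3 and 0 above that of P4HA2, which was 0.07 and 0.06. With P4HB the median was 0.30 and 0.18. Genes most alike to P4HA2 were the tropomyosin TPM2 (0.16 and 0.16), the peroxiredoxin PRDX4 (0.17 and 0.15), the disulfide isomerase PDIA3 (0.14 and 0.16), PRSS53 (0.15 and 0.13) and the calcium-binding protein RCN1 (0.13 and 0.12), all of them weak coefficients.

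**Figure D3:**
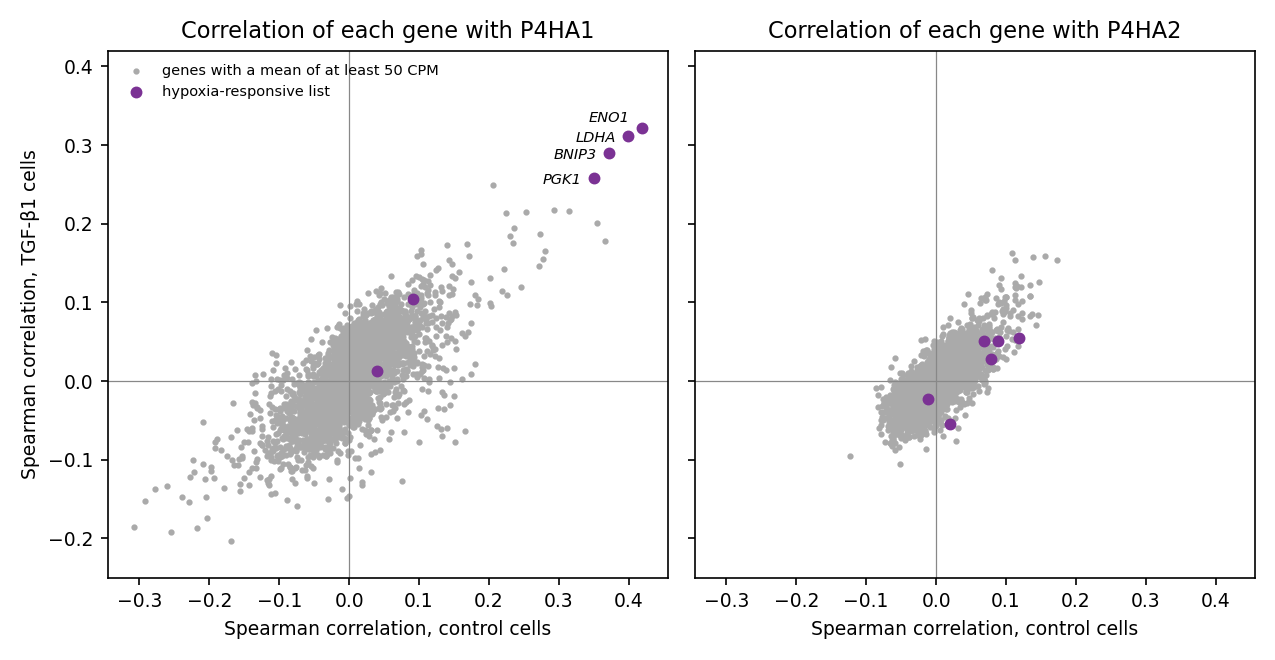
Spearman correlation over thinned cells of each of 2796 genes (grey) with P4HA1 (left) and P4HA2 (right), in control cells (horizontal axis) and TGF-β1 cells (vertical axis), with the hypoxia-responsive genes in purple. ENO1, LDHA, BNIP3 and PGK1 lie at the upper right end for P4HA1, between 0.35 and 0.42 in the control, and at smaller coefficients for P4HA2.

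When cells were ranked within their library by the summed UMIs of the hypoxia-responsive list, P4HA1 had 229 CPM in the lowest 25% and 437 CPM in the highest 25% of control cells, and 310 and 501 CPM in the TGF-β1 library. The log2 difference was 0.93 (0.90 to 0.97) in the control and 0.69 (0.67 to 0.72) after TGF-β1. P4HB had 554 and 833 CPM in these control cells, SERPINH1 1432 and 2049 CPM. P4HA3 went the other way, with 35.9 CPM in the lowest and 23.0 CPM in the highest 25% of control cells, and 53.8 and 48.1 CPM in the TGF-β1 library. The median log2 difference over all genes of 10 CPM or more was -0.13 and -0.10 in the same comparison. The median depth of the lowest and highest 25% was 47020 and 52864 UMIs in the control and 42263 and 43019 UMIs after TGF-β1, and its part in these differences was not tested. ENO1 (1439 CPM) and LDHA (868 CPM) held most of the 3383 summed CPM of the list in the control. Both were chief among the genes most alike to P4HA1, so its rise over this ranking restates those correlations and is no separate result.

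The span of P4HA1 between these groups of cells within a library was thus larger than its difference between the libraries. At a like rank of the list, P4HA1 was higher in the TGF-β1 library throughout, with a log2 ratio of 0.44 in the lowest 25%, then 0.37 and 0.25, and 0.20 in the highest 25%. P4HA3 showed the opposite order, with 0.59, 0.74, 0.87 and 1.06. The hypoxia-responsive list itself had 7 genes higher and 8 lower after TGF-β1 and a median log2 ratio of -0.08, and ENO1, LDHA, PGK1 and BNIP3 had -0.10, 0.09, 0.01 and -0.21.

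**Figure D4:**
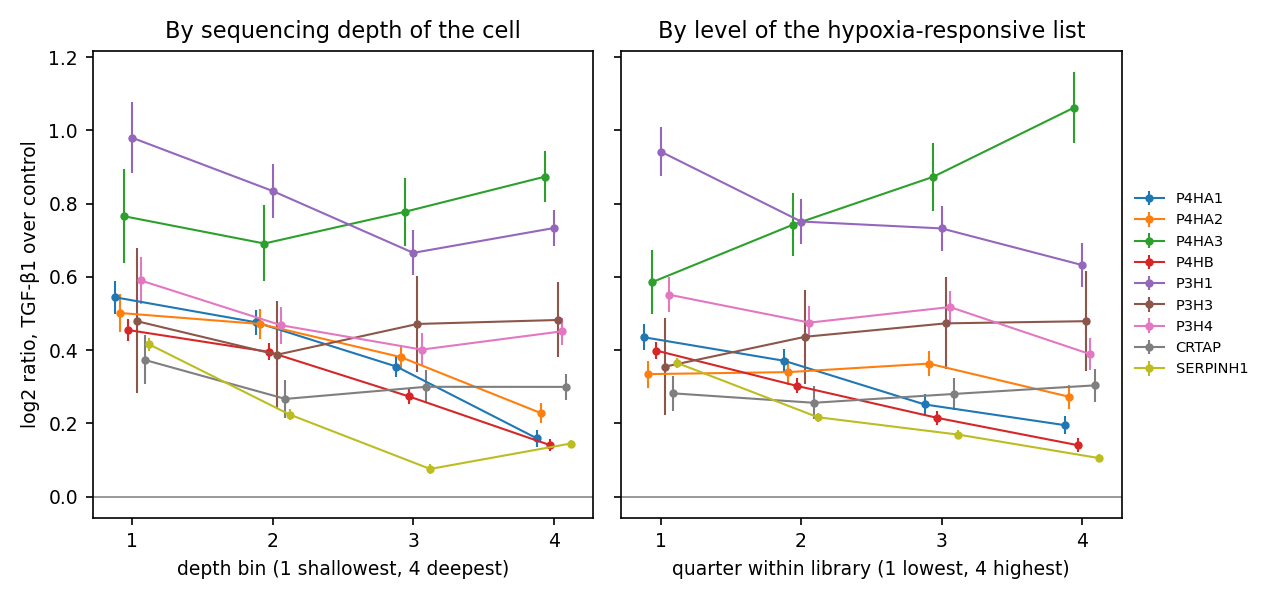
Log2 ratio of the treated to the control library (vertical axis) with 95% counting intervals for 9 of the 10 genes, within 4 bins of cell depth (left) and within 4 ranges of the rank of the summed hypoxia-responsive list (right); P3H2 is left out because of its wide intervals. All points lie above 0, the ratios of P4HA1 and P4HB are smaller in the bins to the right in both panels, that of SERPINH1 is smallest in the third depth bin, and that of P4HA3 is larger to the right in the right panel.

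Among the 10 genes themselves, the uncorrected coefficients over cells were small for most pairs. P4HA3, P3H2 and P3H3 were too sparse for their coefficients to be read, and 24 of the 45 pairs held at least 1 of them. Over all 45 pairs the median was 0.02 in the control and 0.01 in the TGF-β1 library. It was 0.04 and 0.02 in cells that were not thinned and 0.005 and 0.008 in cells with 10000 or more UMIs thinned to that depth, so no order of the libraries can be read from it. The 21 pairs of the 7 genes with at least 50 CPM had medians of 0.06 and 0.05, beside 0.003 and 0.002 for all pairs of the 2796 genes, whose 95th percentile was 0.12 in either library. Counting noise lowers such coefficients: with the counting variance removed, an alternative chosen after seeing the data, the median of the 21 pairs was 0.24 and 0.23. The corrected value was 0.54 and 0.43 for P4HA1 with P4HB, 0.52 and 0.43 for P3H1 with SERPINH1 and 0.52 and 0.70 for P3H1 with P3H4. It was negative for other pairs, such as P4HA1 with P3H4 (-0.09 and -0.22) and CRTAP with SERPINH1 (-0.06 and -0.11). Corrected values over all pairs of the 2796 genes are not given for comparison. The variance of P3H1 was only 1.12 and 1.16 times its mean, so its corrected values are unsteady.

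The uncorrected coefficient was above 0.1 in both libraries for 6 of these 21 pairs, beside 5.31% of all pairs of the 2796 genes, and each of the 6 held SERPINH1 or P4HB. SERPINH1 had large coefficients with many genes, with a 95th percentile of 0.20 and 0.18 over the 2796 genes, and that of P4HB was 0.13 and 0.07. P4HB and SERPINH1 had 0.32 and 0.28, P4HA1 and P4HB, which are subunits of the same enzyme, 0.28 and 0.20, and P3H4 and SERPINH1 0.19 and 0.19. P4HA2 and P3H1 had smaller coefficients with SERPINH1, 0.13 and 0.11 and 0.14 and 0.14, which lay below its 95th percentile, and P3H4 lay below it in the control and above it after TGF-β1. P3H1 and CRTAP, partners in a complex, had 0.02 and -0.01, and 0.17 and -0.05 with the counting variance removed. P4HA2 and P4HB, again subunits of the same enzyme, had 0.10 and 0.12. P3H1 with its partner PPIB, which is no member, had 0.09 and 0.12.

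**Figure D5:**
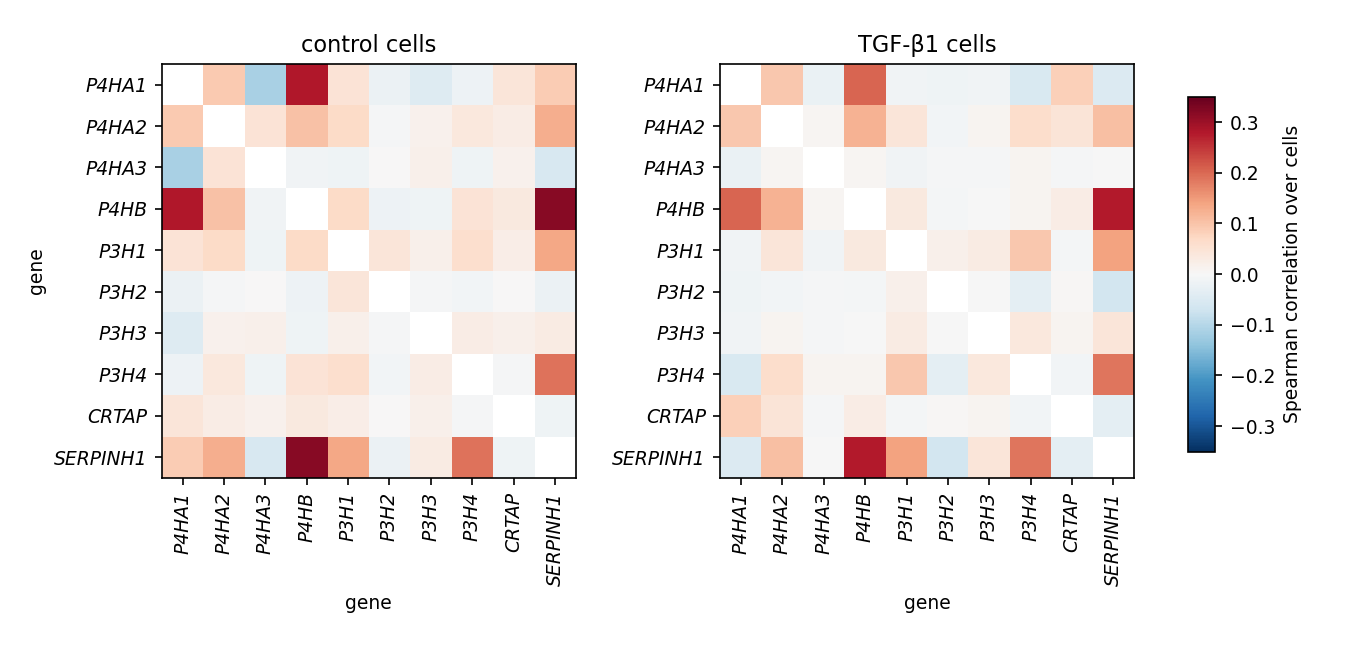
Spearman correlation over thinned cells for each pair of the 10 genes in the control (left, 3865 cells) and TGF-β1 (right, 4513 cells) library, from blue (negative) to red (positive). The darkest red fields are P4HB with SERPINH1 (0.32 and 0.28) and P4HA1 with P4HB (0.28 and 0.20), and most other fields are near white.

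For the other abundant members the genes most alike, with members left out, were of different kinds. The strongest coefficients of SERPINH1 were with the cytoskeletal genes ACTG1 (0.46 and 0.40) and TMSB10 (0.44 and 0.39), followed by SSR2 (0.39 and 0.40), PRDX4 (0.42 and 0.37) and EIF4A1 (0.40 and 0.37). With COL1A1, the chain it binds, SERPINH1 had -0.001 in the control and -0.10 in the TGF-β1 library, and with PPIB 0.36 and 0.34. P4HB was most alike to the chaperone HSP90B1 (0.31 and 0.32), ENO1 (0.35 and 0.24), PRDX4 (0.37 and 0.23), RPN2 (0.28 and 0.23) and PDIA3 (0.24 and 0.22), most of them genes of the endoplasmic reticulum. Its coefficient with the member SERPINH1, 0.32 and 0.28, ranked between those of HSP90B1 and ENO1 by the lower of both libraries.

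CRTAP was the member whose most alike genes were matrix genes, namely VCAN, THBS2, COL3A1, FN1 and SPARC, although all 5 coefficients were weak, between 0.08 and 0.13 in either library. Outside the set, P3H1 was most alike to SPARC, PRSS53, RCN3, RCN1 and MYL12A, with coefficients between 0.10 and 0.12. Its coefficient with the member SERPINH1 was larger, at 0.14 and 0.14. For P3H4 the genes most alike outside the set were UBB, MYL6, CFL1, ACTG1 and MYL9, with 0.15 to 0.24. The member SERPINH1, at 0.19 and 0.19, ranked above them by the lower of both libraries. When cells were ranked by summed collagen UMIs, CRTAP had 122 CPM in the lowest and 143 CPM in the highest 25% of control cells (log2 difference 0.23) and 144 and 177 CPM in the TGF-β1 library (0.29). SERPINH1 had 1781 and 1769 CPM in the control, and 2198 and 1973 CPM in the TGF-β1 library. The cells high in collagen were deeper, with medians of 54712 against 45923 UMIs in the control and 48773 against 38390 UMIs after TGF-β1, and the part of depth was not tested.

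The 10 genes were further compared across cell states within each library. Contractile genes are known as markers of the myofibroblast. In control cells the highest 25% by the summed contractile list had more P4HA1 (350 against 267 CPM), P4HB (754 against 570 CPM), P3H1 (70.5 against 51.8 CPM) and SERPINH1 (2000.1 against 1484 CPM) than the lowest 25%. The median depth of these cells was 55718 and 43767 UMIs, and its part in the difference was not tested. The median log2 difference over all genes was -0.15 in this split. LDHA (1091 against 581 CPM) and ENO1 (1624 against 1182 CPM), 2 of the hypoxia-responsive genes, were higher in the same cells, and their part was not tested either. The main collagen chains differed less, with 5218 against 5509 CPM for COL1A1, 4185 against 4117 CPM for COL1A2 and 4097 against 4566 CPM for COL3A1, so that COL1A1 and COL3A1 were lower in the highest 25%. P4HA3 was lower in the highest 25%, with 25.3 against 33.5 CPM.

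The contractile list itself differed between the libraries, with 18445 and 27834 summed CPM, and the ranks therefore do not mark like levels in both. Of its 8 genes 7 were higher after TGF-β1, 4 of them by more than 1.5-fold, with the largest log2 ratios for ACTG2 (1.47), TPM1 (1.26) and CNN1 (1.23). In the TGF-β1 library P4HA1 had 381 CPM in the highest and 396 CPM in the lowest 25% by contractile genes, and P4HB 811 and 818 CPM. P4HA2 had 321 and 252 CPM and P3H4 202 and 156 CPM, log2 differences of 0.35 (0.32 to 0.38) and 0.38 (0.34 to 0.42). The median depth was 44109 and 40700 UMIs and the median log2 difference over all genes -0.12 in this split, in which LDHA had 1058 and 800 CPM and ENO1 1364 and 1352 CPM. For P4HA1 the log2 difference between the highest and lowest 25% was 0.39 (0.36 to 0.43) in the control and -0.05 (-0.08 to -0.03) in the TGF-β1 library, and for P4HB 0.40 (0.38 to 0.43) and -0.01 (-0.03 to 0.01). The intervals of the libraries did not overlap for either gene, while P4HA2 and P3H4 were higher in the highest 25% of both libraries.

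Cells with a UMI of the complement factor gene CFD had less P4HA1 in both libraries, with 275 against 357 CPM in the control (1733 and 2132 cells) and 338 against 401 CPM in the TGF-β1 library (690 and 3823 cells). The median depth was 47423 against 52770 UMIs in the control and 43729 against 43092 UMIs after TGF-β1, and LDHA was also lower in the CFD-positive cells, by log2 differences of -0.47 and -0.27, as was ENO1 (-0.34 and -0.25). The part of either in the difference of P4HA1 was not tested. Between control cells with and without a KRT8 UMI (980 and 2885 cells), P3H1 had 60.9 CPM in either group and P4HB 704 against 676 CPM. In the same split P4HA1 had 346 against 313 CPM, and P4HA3 27.4 against 29.9 CPM. The median depth was 53128 against 49519 UMIs, LDHA had 919 against 849 CPM and ENO1 1521 against 1409 CPM, and their part was not tested. Between cells with and without a P4HA3 UMI, P4HA1 had 304 against 334 CPM in the control and 386 against 399 CPM in the TGF-β1 library. Splits by VCAM1, IGFBP3 and AREG were also made and are not given here.

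Genes that act beside the 10 members in collagen synthesis were counted by list, over the genes of each list that averaged 1 CPM or more. The 12116 genes at this level had a median log2 ratio of -0.01, with 48.7% higher and 51.3% lower, and 7.64% were more than 1.5-fold higher and 9.36% more than 1.5-fold lower. Of the lysyl hydroxylases, which prepare collagen for cross-linking, 3 of 3 were higher in the TGF-β1 library, and PLOD2 had the largest ratio with 173 and 344 CPM (0.99 on the log2 scale), followed by PLOD3 with 0.36. P4HA1 and PLOD2, both known as hypoxia-responsive collagen modifiers, had a coefficient over cells of 0.21 and 0.25.

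All 7 genes listed as partner foldases were higher, with a median of 0.47, and 3 were more than 1.5-fold higher. These were FKBP7 (0.75), the matrix gene SPARC (0.63) and TMEM38B, an ion channel of the endoplasmic reticulum at 2.22 and 3.90 CPM (0.81). Of these 3 genes only FKBP7 is a foldase. FKBP14 had 0.47. Of 14 disulfide isomerases and general chaperones 12 were higher and 2 lower, and 1 was more than 1.5-fold higher, with a median of 0.26. DNAJB11 had 0.71, HSP90B1 0.54 and CALR 0.49, whereas HSPA5, the main sensor chaperone of the unfolded protein response, had 719 and 647 CPM, a log2 ratio of -0.15 (-0.16 to -0.14). All 10 measured genes of large-cargo export were higher, with a median of 0.38, and SEC23A, a coat protein of export vesicles, had 0.59, KDELR3 0.52 and SAR1A 0.51. Of 25 collagen chains at this level 19 were higher and 6 lower, and among those that averaged 10 CPM or more the largest ratios were those of COL8A1 (2.44), COL15A1 (1.77) and COL12A1 (1.51).

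The prolyl hydroxylases that act on the hypoxia-inducible factors rather than on collagen went the other way. EGLN1 had 34.6 CPM in the control and 26.1 CPM after TGF-β1, which is -0.41 (-0.46 to -0.36) on the log2 scale, and EGLN2 had 30.3 and 27.4 CPM (-0.14). EGLN3, which the hypoxia-responsive list also holds, had 9.43 and 5.24 CPM, and P4HTM, a transmembrane member of the wider family, 8.09 and 3.64 CPM, log2 ratios of -0.85 (-0.95 to -0.74) and -1.15 (-1.28 to -1.03). All 4 of these genes were lower, 2 of them by more than 1.5-fold, and all 10 members were higher. Of 6 measured genes for the supply of ascorbate and 2-oxoglutarate, the cosubstrates of all these enzymes, 4 were higher and 2 lower, with the glucose and dehydroascorbate transporter SLC2A1, which the hypoxia-responsive list also holds, at 0.91, IDH2 at 0.35 and the ascorbate transporter SLC23A2 at 0.31. In the hypoxia-responsive list ADM had -2.56 and VEGFA 1.06, so the targets did not share a direction.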

How the data were processed

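Single cell libraries (10x 3′ v3.1) of control and TGF-β1 treated fibroblasts were used. The values deposited by the authors are UMI counts per gene and barcode of filtered matrices, made with Cell Ranger against EquCab3.0 and Ensembl models. The submitters' processing notes name Cell Ranger 7.1.0, the file header 8.0.1. Kept cells had 20000 UMIs or more, 3500 genes or more and mitochondrial UMIs below 4%, and 210497250 control and 219731144 TGF-β1 UMIs were summed per gene. Doublets were not removed, since the genotype calls of the study were not used here. Ratios of CPM carry exact binomial (Clopper-Pearson) 95% intervals for counting error, and 1 library per group allowed no test. For shares of cells and for Spearman correlations each cell was thinned once to 20000 UMIs. Scripts used Python 3.11.15 with pandas 2.3.3, scipy 1.17.1, numpy 2.4.6 and matplotlib 3.10.9 and were tested on simulated data.

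The members, gene lists and cell states were chosen with earlier results of these data known. Named were all 10 members, their partners and main collagen chains, per pathway list and the contractile list the 3 genes of 10 CPM or more on average that lay farthest from 0 in log2 ratio, and per member with at least 50 CPM the 5 genes with the highest correlation by the lower of both libraries. Other members and mitochondrial and ribosomal protein genes were left out of that ranking by correlation. HSPA5, EGLN3, P4HTM, NUDT13, TMEM38B, COL4A1, COL4A2 and the marker genes of cell types were named outside this rule, after their values were seen, as were the ratios of 4 hypoxia-responsive genes. Names of neighbouring genes come from RefSeq TB-T2T, in which all 10 members were found by symbol. That assembly is not the build of the files, so it was used for the order and overlap of neighbouring genes only, and no coordinates are given. Of the listed genes, 5196 had no symbol. COLGALT1, GLUD1, MIA2 and MIA3 were not found by symbol. Alternatives were other cell filters, removal of the cells above the 98th percentile of UMIs, other scalings, thinning, removal of cycling cells, and other limits.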

Additional observations from a re-analysis of the deposited data

How the results depend on the processing

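All 10 genes were higher in the TGF-β1 library under each of the 9 alternatives of cell filter, depth and scaling, with log2 ratios of 0.19 to 0.23 for SERPINH1, 0.27 to 0.32 for P4HA1, 0.75 to 0.78 for P3H1 and 1.72 to 1.88 for P3H2. Of 90 such ratios 82 stayed within the counting interval of the value reported. The share of P4HA1 among alpha subunit UMIs in the control was 55.4% by the mean of per-cell CPM and 55.1% after thinning, beside 55.7%. The median log2 ratio was 0.33 over the 9 members with at least 10 CPM, and 1 member passed a 2-fold limit, beside 2.3% of tested genes. The median pairwise correlation over all 45 pairs, 24 of which hold a member too sparse to be read, was 0.0175 in the control and 0.0069 in the TGF-β1 library. It was 0.161 and 0.054 with the counting variance removed, 0.0389 and 0.0176 without thinning, and 0.0054 and 0.0078 in cells of 10000 or more UMIs. This correction, the ratios within ranks of the hypoxia-responsive list and the splits by that list, P3H2 and P4HA3 were chosen after seeing the data. No paired analysis was possible because there was 1 library per group and the cells could not be assigned to mares here. For the same reason leaving out a replicate was not possible. The depth limits P3H2, with 191 control UMIs, most.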
